A study of Mus musculus with 18 samples.

Results

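The comparison set macrophages given LPS together with IL-10 for 20 min against macrophages given the same for 10 min. It sets against each other 6 of the 18 arrays of the series, the 3 labelled LPS plus IL-10, 20 min and the 3 labelled LPS plus IL-10, 10 min, paired by replicate number and taken over all probe sets. All cells were bone marrow derived macrophages of the genotype IL-10 -/-, matured over 7 days with CSF-1 supplied as L cell conditioned medium, and treated in medium without CSF-1. Per the labels, nearly all viable cells were mature macrophages. LPS was given at 100 ng/ml and IL-10 at 10 ng/ml. The LPS plus IL-10 arrays of 30 min and the LPS arrays of 20 and 10 min, 3 each, are set beside this comparison where they show how it differs. Each replicate number was a complete experiment of its own, done in sequence on mice matched in age and sex, and is called experiment 1, 2 or 3 here. Untreated cells were not analysed here, so a value at 20 min is read only against 10 min.

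LPS, a cell wall component of Gram-negative bacteria, activates Toll-like receptor 4 and, behind it, NF-kB and the MAP kinases, which switch on immediate early genes and cytokine genes from factors already present in the cell. IL-10 binds its receptor on macrophages and activates the kinases JAK1 and TYK2, which phosphorylate STAT3. STAT3 then enters the nucleus and induces genes that restrain the inflammatory response. Cells of IL-10 -/- mice make no working IL-10 of their own, which leaves the IL-10 added. The series title concerns a repressor and a co-repressor that STAT3 induces, and Etv3 and Sbno2 are the genes of such a pair.

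Between 10 and 20 min of LPS plus IL-10, 9 probe sets, which belong to 7 genes, rose, and no probe set fell. They were Socs3, the inhibitor of cytokine receptor signalling, with 3 probe sets, Sbno2, a co-repressor, Etv3, an ETS-family repressor, Dusp1, a MAP kinase phosphatase, Zfp36, which marks cytokine mRNAs for decay, Ier3, an immediate early survival gene, and Cxcl2, a neutrophil chemokine. Socs3 had by far the largest change among them, 9.34-fold on its brightest probe set, and the other 6 genes lay between 1.77-fold for Zfp36 and 2.91-fold for Sbno2. All 9 probe sets were higher at 20 than at 10 min in each of the 3 experiments, as were 12.7% of all probe sets tested. The test was limma's moderated test of log2(signal + 16), with the experiment as a block, and a probe set was called at an adjusted p under 0.05 over all 27110 probe sets tested. The 9 called were 0.0332% of those tested, and 1474 (5.44%) had an unadjusted p under 0.05. With the experiment left out of the model only 3 probe sets passed (0.0111%), 2 of Socs3 and 1 of Sbno2. Leaving out experiment 1 or 2 left 4 or 5 of the 9. Leaving out experiment 3 gave 10 calls, 6 of them among the 9, and 1 of the 10 was lower, a probe set of the membrane protein gene Tm2d2 (log2 change -1.39, adjusted p = 0.0293). The model took its spread from all 18 arrays. With only the 6 arrays compared, 7 of the 9 passed, and Dusp1 (adjusted p = 0.0603) and Zfp36 (0.402) did not. With the 9 LPS plus IL-10 arrays Zfp36 did not pass (adjusted p = 0.0581), and without the intensity trend of limma Cxcl2, Dusp1, Ier3 and Zfp36 did not (adjusted p = 0.230, 0.170, 0.323 and 0.318).

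**Figure D1:**
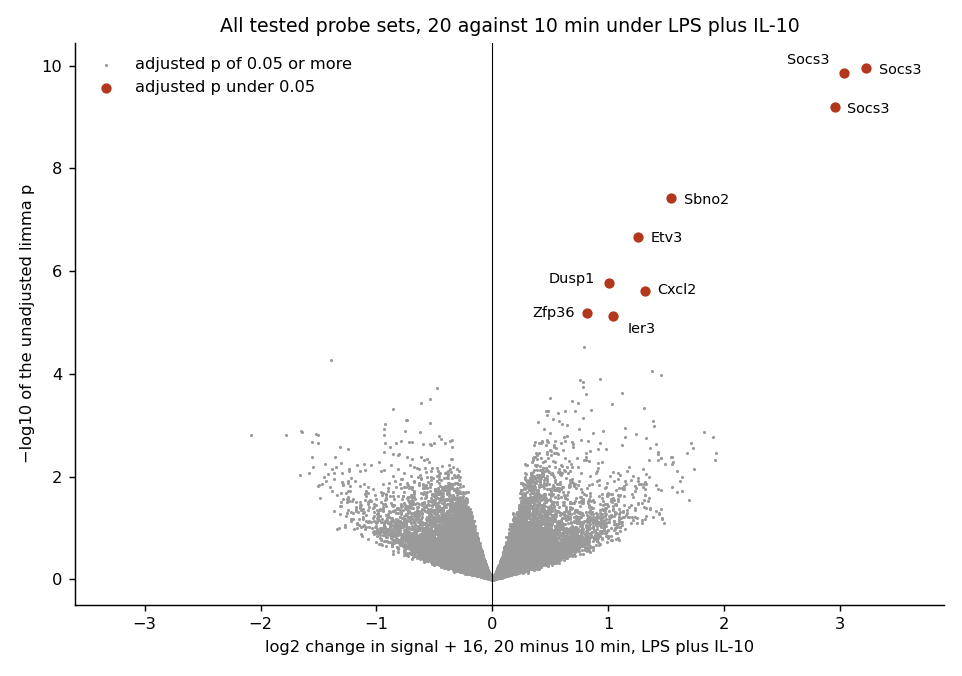
Each point is 1 of the 27110 probe sets tested, with the log2 change of signal + 16 (20 minus 10 min, LPS plus IL-10, 3 experiments) on the x axis and −log10 of the unadjusted limma p on the y axis. Red points had an adjusted p under 0.05: the 3 Socs3 probe sets stand alone near a log2 change of 3, the other 6 called probe sets lie between 0.82 and 1.54, and no probe set on the left side was called.

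The promoters of 7 of the 7 genes were in the RefSeq table (GRCm38.p6), as 9 windows from 250 bases before to 50 bases after an annotated start. Those that carry a match to a motif of the pathways above are shown for Socs3, Sbno2, Zfp36, Dusp1 and Cxcl2, written 5′ to 3′ on the strand of the gene, with the matches in capitals. The motifs searched on both strands were the STAT element (TTCNNNGAA), the cAMP response element (TGACGTCA), the AP-1 element (TGANTCA), the TATA box (TATAAA) and, by their usual consensus, the NF-kB element and the CArG box that serum response factor binds. Capitals mark a STAT element in Socs3 and Sbno2, a CArG box and then a STAT element in Zfp36, a cAMP response element in Dusp1, and an NF-kB element that matches on both strands, overlapping itself by all but 1 base at each end, in Cxcl2.
Socs3, chr11:117969317-117969616, minus strand: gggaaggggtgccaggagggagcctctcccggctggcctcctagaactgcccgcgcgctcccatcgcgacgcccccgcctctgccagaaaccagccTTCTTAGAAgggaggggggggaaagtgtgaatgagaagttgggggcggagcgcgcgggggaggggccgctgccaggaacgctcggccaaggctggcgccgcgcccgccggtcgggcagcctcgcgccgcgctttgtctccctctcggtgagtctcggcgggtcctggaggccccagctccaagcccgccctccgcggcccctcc
Sbno2, chr10:80102653-80102952, minus strand: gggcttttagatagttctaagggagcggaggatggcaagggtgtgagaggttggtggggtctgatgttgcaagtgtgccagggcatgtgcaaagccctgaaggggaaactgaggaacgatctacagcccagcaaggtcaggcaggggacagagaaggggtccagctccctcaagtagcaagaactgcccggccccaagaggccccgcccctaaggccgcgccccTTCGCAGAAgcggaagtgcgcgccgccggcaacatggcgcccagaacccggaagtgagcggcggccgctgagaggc
Zfp36, chr7:28379179-28379478, minus strand: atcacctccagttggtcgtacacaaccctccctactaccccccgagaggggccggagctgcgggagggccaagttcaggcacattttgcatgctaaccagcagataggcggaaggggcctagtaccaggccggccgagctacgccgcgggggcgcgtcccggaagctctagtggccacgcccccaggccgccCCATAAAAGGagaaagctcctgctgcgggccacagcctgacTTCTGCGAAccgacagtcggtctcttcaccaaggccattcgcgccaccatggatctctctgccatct
Dusp1, chr17:26508423-26508722, minus strand: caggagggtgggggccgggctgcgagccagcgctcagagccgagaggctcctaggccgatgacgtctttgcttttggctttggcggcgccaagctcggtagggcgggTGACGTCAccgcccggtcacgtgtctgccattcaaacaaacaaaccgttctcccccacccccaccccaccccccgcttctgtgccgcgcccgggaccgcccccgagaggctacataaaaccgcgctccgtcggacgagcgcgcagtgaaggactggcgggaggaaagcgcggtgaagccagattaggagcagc
Cxcl2, chr5:90903649-90903948, plus strand: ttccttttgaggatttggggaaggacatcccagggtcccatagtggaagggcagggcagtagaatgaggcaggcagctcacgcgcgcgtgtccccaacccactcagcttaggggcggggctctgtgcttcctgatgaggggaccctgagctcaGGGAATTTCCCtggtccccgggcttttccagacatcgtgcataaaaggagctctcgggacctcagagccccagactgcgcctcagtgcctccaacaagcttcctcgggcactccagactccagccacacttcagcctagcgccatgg

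The STAT element of Socs3, TTCTTAGAA, lay 154 to 146 bases before the annotated start of its window. That of Sbno2, TTCGCAGAA, lay 26 to 18 bases before the start of the window shown, and a second of its 3 windows held TTCCCGGAA 24 to 16 bases before another start. The windows of Socs3 and Sbno2 lay inside the annotated spans of these genes, which on the minus strand begin at chr11:117970336 and chr10:80106108. These starts are thus not the outermost of the 2 genes. In Zfp36 TTCTGCGAA lay 17 to 9 bases before the start, behind the CArG box at 58 to 49 bases. The Dusp1 element lay 143 to 136 bases, and the Cxcl2 element 97 to 87 bases before the start. Ier3 held an NF-kB element on the reverse strand, GGAGTTCCCC, 92 to 83 bases before its start (chr17:35821463-35821762, plus strand), and the third Sbno2 window held 1 as well, GGGAAGTCCC, at 179 to 170 bases. The window of Etv3 (chr3:87525328-87525627, plus strand) held none of these letters. Of the 32851 windows of all genes 8.3% held the STAT element, 8.46% the NF-kB element, 1.79% the cAMP response element, 1.63% the CArG box, 7.81% the AP-1 element and 13.6% the TATA box. Over the 12938 windows of genes tested here the shares were 6.86%, 10.3%, 2.89%, 1.34%, 5.57% and 7.8%, in the same order. A match describes these letters and not a site bound in these cells.

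Socs3, which STAT3 induces and which blocks cytokine receptors that signal through JAK kinases, was at 4597, 4858 and 5930.4 in experiments 1, 2 and 3 at 20 min (brightest probe set, signal on a linear scale), against 409.8, 569.9 and 642.6 at 10 min. The lowest array at 20 min was thus far above the highest at 10 min. Its mean was 5128 ± 707 at 20 min and 541 ± 119 at 10 min (SD, n = 3 each). The log2 change was 3.22 (SE 0.24, 95% interval 2.71 to 3.73, limma adjusted p = 1.89e-06), with 3.44, 3.06 and 3.17 in the 3 experiments. The second probe set had 2967, 4414 and 5993 at 20 min against 358.7, 514.1 and 713.9 at 10 min, a log2 change of 3.03 (SE 0.23). The third had 2171, 3673 and 3248 at 20 min against 227.2, 444.5 and 490.3 at 10 min, a log2 change of 2.95 (SE 0.25, adjusted p = 5.81e-06). The 3 probe sets thus gave like values, and none of their groups overlapped. Of all 27110 probe sets tested, 669 (2.47%) had all 3 signals at 20 min above all 3 at 10 min. That share belongs beside each gene below whose groups did not overlap or lay apart. The suffix of the first and second marks probes that can also match other transcripts. The third, without that suffix, did not pass without the block (adjusted p = 0.0539). All 3 kept the call with any 1 experiment left out, at adjusted p-values of up to 0.0338 without experiment 1.

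Sbno2 encodes a homologue of Drosophila strawberry notch that acts as a co-repressor, and its signal was 1222, 1196 and 1734.5 at 20 min, against 398.7, 508.5 and 473.3 at 10 min (brightest of 4 probe sets). Every array at 20 min was above every array at 10 min, and the array of experiment 3 was the highest at 20 min. The log2 change was 1.54 (SE 0.17, 95% interval 1.19 to 1.90, limma adjusted p = 0.000258, 0.0195 without the block). Without experiment 1 the call was lost (adjusted p = 0.175). The second-brightest probe set had 595.9, 594.3 and 765.6 at 20 min against 310.7, 347.2 and 440.4 at 10 min and did not pass (log2 change 0.81, adjusted p = 0.332). The third had 541.3, 618.2 and 728.9 at 20 min against 214.4, 302.4 and 404.0 at 10 min and did not pass either (1.03, adjusted p = 0.411). In both the groups did not overlap, as in 2.47% of all probe sets tested, with 20 min the higher. The dimmest probe set, at 219 ± 105 at 20 min and 197 ± 31.0 at 10 min (SD, n = 3 each), had a log2 change of 0.05 and went different ways in the 3 experiments.

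Etv3 encodes a transcriptional repressor of the ETS family, known in macrophages for holding back growth, and 1 of its 4 probe sets passed. This third-brightest probe set was at 1535, 1363 and 1293 at 20 min, against 552.7, 693.6 and 489.6 at 10 min. The groups did not overlap, and the log2 change was 1.26 (SE 0.15, 95% interval 0.93 to 1.59, limma adjusted p = 0.00116). It did not pass without the block (adjusted p = 0.876) or without experiment 1 (adjusted p = 0.629). The brightest Etv3 probe set had 2254, 3138 and 1920 at 20 min against 1752, 2058 and 1410 at 10 min. It was higher at 20 min in each experiment, but its groups overlapped and it did not pass (0.47, adjusted p = 0.484). The second-brightest had a log2 change of 0.11 (95% interval -0.10 to 0.32) and the dimmest one of -0.07 (-0.96 to 0.82). The 4 probe sets of Etv3 therefore did not give 1 value, and which regions of the transcript they read was not given in the sources used here.

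**Figure D2:**
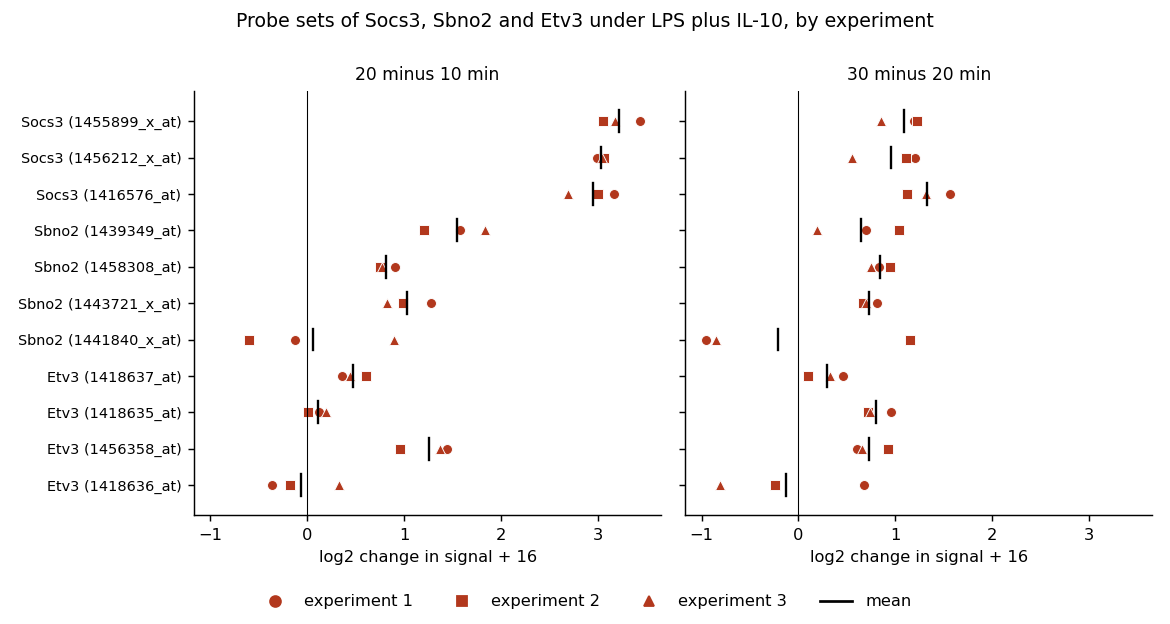
Log2 change of signal + 16 on the x axis for every tested probe set of Socs3, Sbno2 and Etv3 under LPS plus IL-10, 20 minus 10 min on the left and 30 minus 20 min on the right, with 1 symbol for each of the 3 experiments and a bar at the mean. The Socs3 probe sets lie together near 3 on the left, 3 of 4 Sbno2 probe sets are above 0.8 on the left, and the Etv3 probe sets are spread, with the third of them at 1.26 on the left and the second at 0.11 on the left and 0.80 on the right.

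Dusp1, Zfp36 and Ier3 act as brakes on the early response. Dusp1, which dephosphorylates MAP kinases in the nucleus, was at 8911, 10073 and 7151 at 20 min, against 5443, 4587 and 3140.2 at 10 min. Every array at 20 min was above every array at 10 min, and the log2 change was 1.01 (SE 0.14, 95% interval 0.70 to 1.31, limma adjusted p = 0.00779). Its call was lost without experiment 1 (adjusted p = 0.0881) or experiment 2 (0.987). Zfp36, whose protein tristetraprolin binds AU-rich elements of cytokine mRNAs such as that of TNF, was at 6103, 8027 and 3983 at 20 min, against 4279, 3518 and 2340.4 at 10 min. Its groups overlapped, since experiment 3 at 20 min was below experiment 1 at 10 min, and the rise showed within each experiment (log2 change 0.51, 1.19 and 0.76). The fitted change was 0.82 (SE 0.13, 95% interval 0.55 to 1.09, limma adjusted p = 0.0225), and no call remained without experiment 1, 2 or 3 (adjusted p = 0.175, 1.00 and 0.146). Ier3 was at 6585, 6210.2 and 6474 at 20 min, against 3467, 2855 and 3033 at 10 min, and its 3 arrays at 20 min lay closer together on the log scale than those of any other called probe set. Its log2 change was 1.04 (SE 0.17, 95% interval 0.69 to 1.395, limma adjusted p = 0.0229), and it too was not called without experiment 1, 2 or 3 (adjusted p = 0.109, 0.726 and 0.167). None of these 3 genes passed without the block (adjusted p = 1.00 for Dusp1 and Zfp36, 0.247 for Ier3).

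Cxcl2, which draws neutrophils through the receptor CXCR2, was the 1 secreted factor among the risers. Its signal was 9113, 9410 and 6646 at 20 min, against 5070.0, 2836 and 2552 at 10 min. The groups did not overlap, though experiment 1 began highest and moved least (log2 change 0.84, against 1.72 and 1.38 in experiments 2 and 3). The fitted log2 change was 1.31 (SE 0.19, 95% interval 0.91 to 1.72, limma adjusted p = 0.00937). It was not called without the block (adjusted p = 0.684), without experiment 2 (1.00) or without experiment 3 (0.0836).

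**Figure D3:**
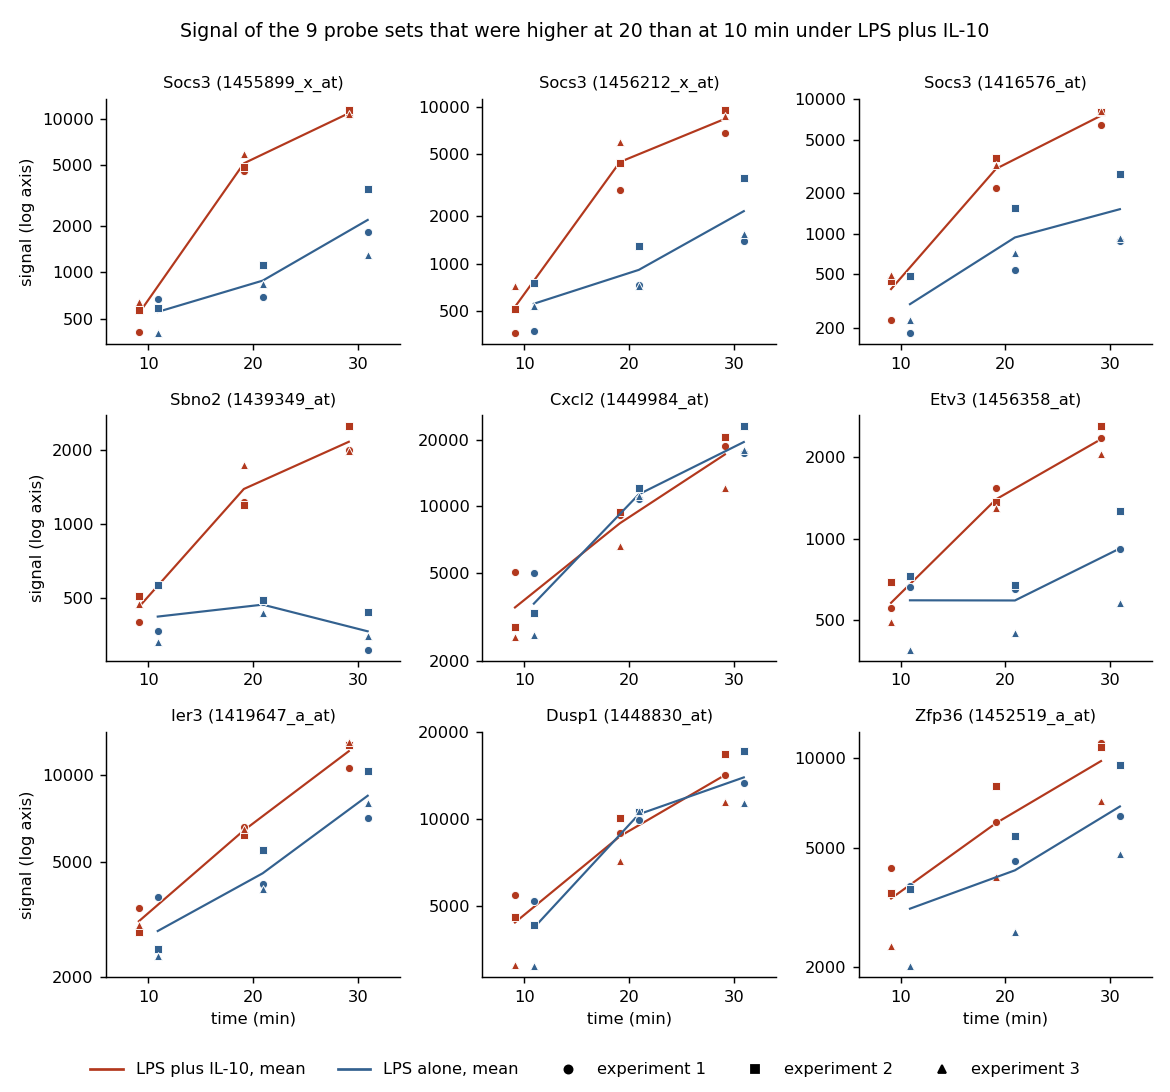
Signal on a log axis against time of treatment in min for the 9 probe sets called, with LPS plus IL-10 in red and LPS alone in blue, points for the 3 experiments (moved slightly to the left and right of the time so that both treatments can be seen) and lines through the group means. In the red series the 3 Socs3 panels lie at 2171 or more at 20 min and at 713.9 or less at 10 min. The blue points of Sbno2 stay at 564.5 or less at all 3 times. For Dusp1 red and blue points overlap at all 3 times. For Cxcl2 they overlap at 10 and 30 min, but at 20 min the blue points (10797.0 or more) are all above the red (9409.6 or less).

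The same interval under LPS alone, on 6 other arrays, gave 4 called risers (0.0148% of 27110) and none that fell. They were Dusp1 (log2 change 1.33, limma adjusted p = 0.000953), Cxcl2 (1.69, adjusted p = 0.00102), Cxcl1, a second neutrophil chemokine gene (1.76, adjusted p = 0.0345), and the third Socs3 probe set (1.57, adjusted p = 0.0394). None of the 4 passed without the block or without experiment 2, and without experiment 1 neither Cxcl1 nor the Socs3 probe set did (adjusted p = 0.206 and 0.455). The count was 3, 0 and 6 without experiment 1, 2 and 3. In the 20 min group of LPS alone, the arrays of experiments 2 and 3 had lower quartiles of signal of 38.7 and 34.1, against at most 31.1 on the other 16 arrays. Without both of them the group holds 1 array, whose spread is taken from the other groups. That fit called 14 probe sets, 1 higher, that of Dusp1 (adjusted p = 0.0313), and 13 lower, and such calls against 1 array support no change over time. The part of these 2 arrays in the values of LPS alone was not tested further. The array with 31.1 was that of experiment 3 at 20 min of LPS plus IL-10, which belongs to the main comparison. The next highest lower quartile was 27.9.

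Whether IL-10 changed what happened over the interval was tested as the difference of the 2 changes, LPS plus IL-10 minus LPS alone. Of 27110 probe sets 2 passed (0.00738%), both of Socs3. The brightest Socs3 probe set had 692.6, 1119.8 and 840.6 at 20 min of LPS alone and 670.1, 587.9 and 401.7 at 10 min, and its log2 change there was 0.66. The difference of the changes was 2.56 (SE 0.34, 95% interval 1.84 to 3.28, limma adjusted p = 0.0175). For the second probe set it was 2.33 (SE 0.33, adjusted p = 0.0175). The third Socs3 probe set gave 1.38 (95% interval 0.65 to 2.12) and did not pass (adjusted p = 0.346), so both called probe sets are those whose probes can match other transcripts. No call remained without the block (adjusted p = 0.360 for the brightest), without experiment 1 (adjusted p = 0.794 for the brightest) or without experiment 2 (0.111). Without experiment 3 there were 11 calls, both Socs3 probe sets among them. Without the 20 min LPS arrays of experiments 2 and 3, which leaves 1 array in that group and takes its spread from the others, the adjusted p was 0.0402 for the brightest and 0.0890 for the second, and neither bears on the call.

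For the called probe sets of Sbno2 and Etv3, picked by their change under LPS plus IL-10, the difference of the changes was of the size of that change. The difference did not pass for either. Sbno2 was at 481.0, 493.7 and 437.1 at 20 min of LPS alone and at 367.2, 564.5 and 331.3 at 10 min. The 2 groups overlapped, and the difference of the changes was 1.35 (95% interval 0.85 to 1.85, limma adjusted p = 0.134). The third-brightest Etv3 probe set was at 652.6, 672.5 and 445.5 at 20 min of LPS alone and at 659.5, 725.2 and 388.4 at 10 min, with a difference of 1.24 (0.78 to 1.70, adjusted p = 0.134). The brightest Etv3 probe set, which was not called, had a difference of 0.41 (limma adjusted p = 0.747). For Dusp1 (-0.32, 95% interval -0.75 to 0.11) and Cxcl2 (-0.37, -0.95 to 0.20) the estimate was negative, and neither passed (adjusted p = 0.831 and 0.845). Zfp36 (0.41, 0.02 to 0.79) and Ier3 (0.36, -0.13 to 0.86) did not pass either. Cxcl1 was at 692.8, 1366.7 and 454.4 at 20 min of LPS plus IL-10 and at 511.4, 668.8 and 413.5 at 10 min (log2 change 0.52, adjusted p = 0.918), and its difference of -1.23 (95% interval -2.03 to -0.44) did not pass (adjusted p = 0.550).

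**Figure D4:**
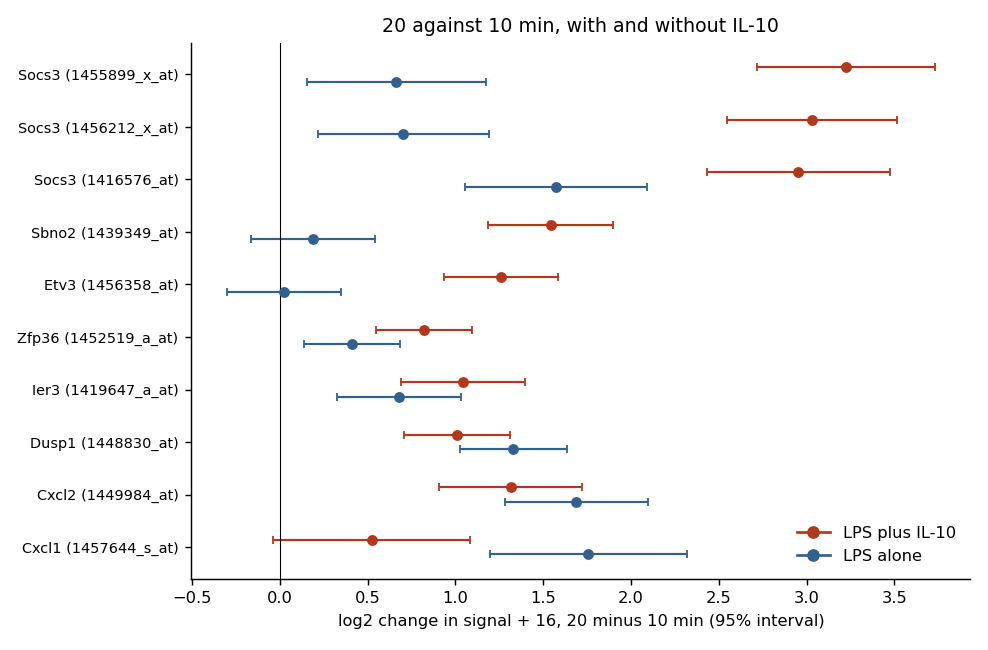
Log2 change of signal + 16, 20 minus 10 min, on the x axis with its 95% interval from limma, under LPS plus IL-10 (red, upper point of each pair) and LPS alone (blue, lower point), for the 9 called probe sets and Cxcl1, 3 experiments each. The red and blue intervals of the 3 Socs3 probe sets, of Sbno2 and of Etv3 do not meet, with red the higher, those of Dusp1, Cxcl2, Ier3 and Zfp36 do, and those of Cxcl1 do not meet, with blue the higher.

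From 20 to 30 min of LPS plus IL-10 the means of all 9 probe sets were higher again. With all arrays in the fit, 1 gene of the first set was called in this later interval, on another probe set. This interval shares the 20 min arrays with the first, so the values stand side by side only. Socs3 averaged 541 ± 119 at 10 min, 5128 ± 707 at 20 min and 10873 ± 454 at 30 min (brightest probe set, SD, n = 3 each), with log2 changes of 3.22 in the first interval and 1.09 in the second (limma adjusted p = 0.224 in the second). Sbno2 averaged 460.2 ± 56.1, 1384 ± 304 and 2150.1 ± 286, with 1.54 and then 0.64. Ier3 averaged 3118 ± 315, 6423 ± 192 and 12055 ± 1309, with 1.04 and then 0.90. Cxcl2 averaged 3486 ± 1379, 8389 ± 1517 and 17185 ± 4450, with 1.31 and then 1.01. Dusp1 (1.01 and 0.70), Zfp36 (0.82 and 0.72) and the third-brightest Etv3 probe set (1.26 and 0.73) were alike. In the second interval 5 probe sets rose (0.0184% of 27110). The second-brightest Etv3 probe set was at 2184, 1836 and 1301 at 30 min, against 1118.0, 1108 and 775.3 at 20 min (log2 change 0.80, limma adjusted p = 0.00764). The others were Pde4b (1.08), the phosphodiesterase gene, the Il10 probe set (1.17), Tnfsf9 (1.57), the gene of a TNF-family ligand, and Il1b (1.99). None of the 5 passed without the block, and none without experiment 1 or without experiment 2, while 11 were called without experiment 3.

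Of 27 measured genes listed as induced by IL-10 and STAT3, 22 were higher at 20 than at 10 min. On their representative probe set 4 were called, Socs3, Sbno2, Dusp1 and Zfp36, and over all 27110 probe sets tested 9 were (0.0332%). Of these 4 genes only Socs3 passed the test of the difference from LPS alone, and Dusp1 was called there as well (log2 change 1.33). A gene's representative probe set is its brightest, and 47.8% of all 12527 genes were higher at 20 min (median log2 change -0.01). The list's median was 0.15, with 0.20, 0.23 and 0.21 in the 3 experiments. The list holds Sbno2 and Etv3, genes this study concerns, so their place in it is not independent evidence. Gadd45g, a growth arrest gene, had 1805, 932.9 and 954.8 at 20 min against 964.0, 619.3 and 428.6 at 10 min (0.87, limma adjusted p = 0.614). Pim1, a STAT-induced kinase gene, was at 1841, 1679 and 1714 at 20 min against 1596, 986.6 and 1202 at 10 min, with groups apart (0.49, adjusted p = 0.827). Junb (0.31), Mt2 (0.25), Stat3 itself (-0.25) and Il1rn (-0.25) did not pass. Under LPS alone 19 of the 27 were higher at 20 min (median 0.12), against 51.2% of all genes (median 0.01).

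The cytokines and chemokines had 15 of 16 measured members higher at 20 min, with a median of 0.46, the highest of the 19 lists, and 1 call, Cxcl2. The median was 0.34, 0.88 and 0.29 in experiments 1, 2 and 3, so experiment 2 moved most. The chemokine genes Ccl3 (2653, 3546 and 2352 at 20 min, against 2108, 1763 and 1617 at 10 min, log2 change 0.62, limma adjusted p = 0.757) and Ccl4 (0.61, adjusted p = 0.827) did not pass. Nor did Ptgs2, the inducible cyclooxygenase gene (0.62), Tnf (0.25) or Il1b (0.15). Under LPS alone 13 of the 16 were higher (median 0.33).

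Among the immediate early transcription factor genes, 18 of 23 were higher at 20 min (median 0.21) and none passed. Fos, a subunit of AP-1, was at 9805, 13192 and 13678 at 20 min, against 6789, 9198 and 10646 at 10 min, when it was already bright (0.47, limma adjusted p = 0.827). Egr1, a zinc-finger factor of the serum response, varied more between experiments than between times, at 764.8, 282.0 and 773.1 at 20 min against 772.9, 160.5 and 338.1 at 10 min (0.63, adjusted p = 0.932). Nr4a1, a nuclear receptor gene, had 261.1, 222.3 and 342.2 at 20 min against 177.7, 162.4 and 168.0 at 10 min, with groups apart (0.63, adjusted p = 0.916). Of the other immediate early genes 18 of 20 were higher (median 0.31, and 13 of 20 with a median of 0.06 under LPS alone), and Ier3 was the 1 called. Pde4b, which breaks down cAMP, came closest of the probe sets not called, at 691.9, 691.0 and 1094.7 at 20 min against 387.0, 408.5 and 612.4 at 10 min (0.79, adjusted p = 0.0811).

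The lists of feedback genes had small positive medians, which for some came mainly from experiment 2. Of the NF-kB pathway feedback genes 14 of 16 were higher (median 0.12, and 0.17 under LPS alone) and none passed, with Nfkbiz, a nuclear partner of NF-kB, at 0.62 (limma adjusted p = 0.444) and Nfkbia, the gene of the inhibitor IkB-alpha, at -0.10. Of the MAP kinase phosphatase and Sprouty genes 10 of 14, the riser Dusp1 included, were higher (median 0.11), with medians of -0.04, 0.36 and -0.06 in experiments 1, 2 and 3. Dusp2, a dim phosphatase gene, had 166.1, 132.2 and 164.8 at 20 min against 74.6, 63.7 and 65.9 at 10 min and did not pass (1.02, adjusted p = 0.827), while Spry1 was at -0.63. Of the mRNA decay and stability factors 13 of 18 were higher (median 0.13, and 0.09 under LPS alone), with Zfp36 called and its relatives Zfp36l1 (0.26) and Zfp36l2 (-0.12) not. Of the Kruppel-like factor genes 10 of 11 were higher (median 0.16, and 0.27 under LPS alone) and none passed, with medians of -0.02, 0.49 and 0.17 in the 3 experiments.

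No member of the remaining lists passed except Socs3, and their medians ran from -0.38 to 0.24. In TLR4 signalling 12 of 20 were higher (median 0.02), in IL-10 receptor and STAT signalling 11 of 21 (0.01, with Socs3 called), in the interferon response 9 of 21 (-0.03), among heat shock and unfolded protein genes 6 of 14 (-0.08) and among housekeeping genes 3 of 12 (-0.07). Of the macrophage markers 4 of 14 were higher (-0.15), a median about as far below that of all genes as the median of the IL-10 and STAT3 list was above it. By experiment the macrophage median was 0.001, -0.32 and -0.06, so experiment 2 moved most. The IL-10 and STAT3 list was even, at 0.20, 0.23 and 0.21. Of the granulocyte markers 6 of 8 were higher (0.24), of the lymphocyte markers 2 of 5 (-0.03), of the stromal markers 4 of 8 (0.02), of the dendritic cell markers 1 of 6 (-0.18) and of the erythroid markers 0 of 4 (-0.38), and these lists hold few genes. Outside the lists, the genes with the smallest p among those lower at 20 min in all 3 experiments were Rcor3, a REST co-repressor family member, at 78.0 ± 11.2 at 20 min and 231 ± 27.5 at 10 min (SD, n = 3 each, log2 change -1.39, limma adjusted p = 0.134), and Clk1, a kinase of splicing factors, at 2521 ± 259 at 20 min and 3526 ± 386 at 10 min (-0.48, adjusted p = 0.288). Neither passed, and in all 617 probe sets (2.28%) had all 3 signals at 20 min below all 3 at 10 min, against 669 (2.47%) above.

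**Figure D5:**
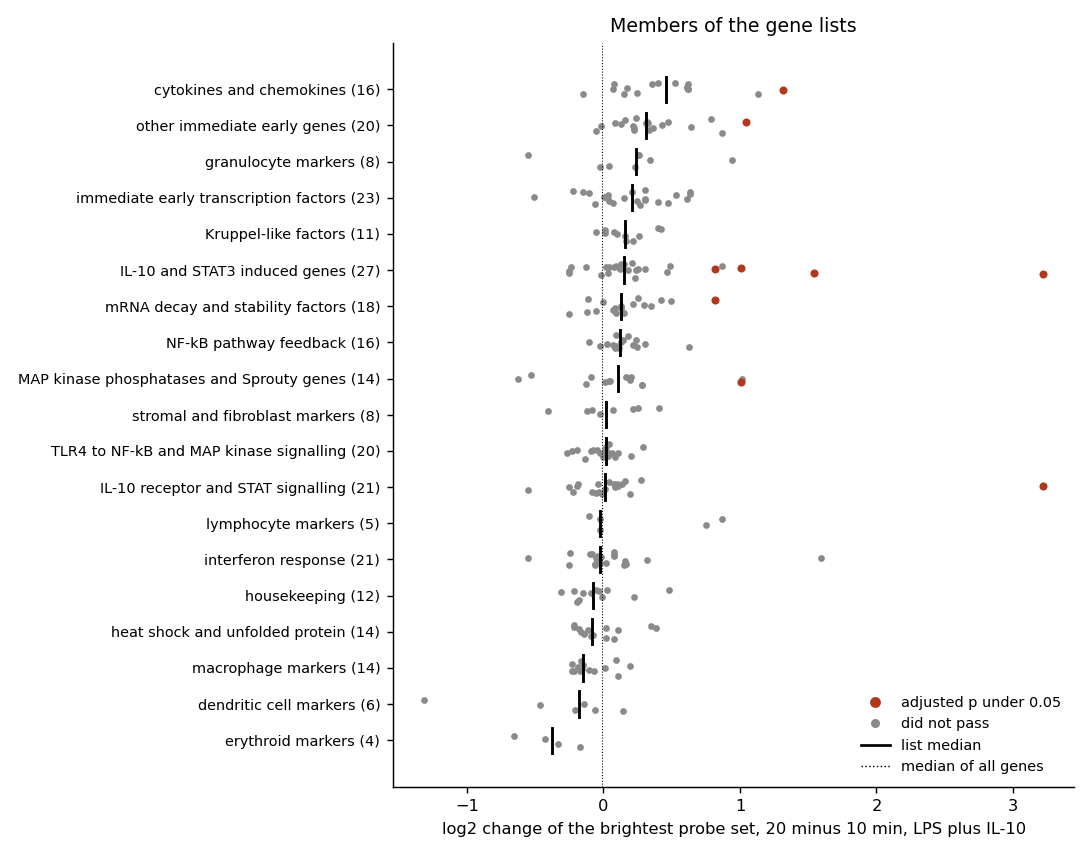
Log2 change of signal + 16, 20 minus 10 min under LPS plus IL-10 (mean of 3 experiments), on the x axis for the brightest probe set of each measured gene, 1 row per gene list with its number of measured genes, sorted by the list's median (bar). Red points had an adjusted p under 0.05, and the dotted line marks the median of all 12527 genes at -0.01. The cytokine and immediate early lists have their medians to the right of that line, as do other lists, among them the granulocyte markers at 0.24. Most red points are single members far from their list's median.

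The risers were short genes for the most part, by their RefSeq annotation (GRCm38.p6). Ier3 spans 1.2 kb, Cxcl2 2.04 kb, Zfp36 2.44 kb, Dusp1 2.88 kb and Socs3 4.26 kb, while Etv3 spans 14.6 kb and Sbno2 49.1 kb. The median span of all 12506 tested genes with one was 22.2 kb and their lower quartile 9.44 kb. Thus 5 of the 7 lay under that quartile, and 73.3% of tested genes were shorter than Sbno2.

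The arrays matched the labelled cell type, with all 14 macrophage markers measured above the array's median signal on all 6 arrays. Their summed signal was 180882 to 190271 at 20 min and 183891 to 244313 at 10 min. Of 11 lymphocyte markers and 6 erythroid markers on the array, none was above the median on all 6 arrays, and their summed signals were at most 774.3 and 464.7 at 20 min and at most 725.5 and 558.5 at 10 min. Below the median on all 6 arrays were 6 of the 11 and 2 of the 6, and the rest reached it on some arrays. Of 8 granulocyte markers 7 were above the median on all 6 arrays, with summed signals of 7301 to 11994 at 20 min and 5806 to 12307 at 10 min. The stromal sums were 4863 to 9255 at 20 min and 5342 to 10217 at 10 min, with 6 of 10 above the median, and the dendritic sums 1690.3 to 2394 at 20 min and 1715 to 2737 at 10 min, with 2 of 9. The part of other cells in the changes was not tested, and in cells measured in bulk fewer cells of a type and less RNA per cell cannot be told apart. The Il10 probe set was at 898.8, 1145 and 1895 at 20 min, against 928.3, 769.4 and 1073 at 10 min. It checks nothing about the genotype, since no arrays of wild-type cells were analysed here and the place of its probes relative to the disruption was not given in the sources used here.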

How the data were processed

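RNA of 18 cultures of mouse macrophages was measured on single-colour Affymetrix arrays with 45101 probe sets, of which 64 are controls. The deposited values are linear intensities, 1 column per array, which the authors made with GCOS 1.4, according to the submitters' processing notes. What signal algorithm it ran was not given in the sources used here. Every array had a mean of 500.0 after trimming 2 percent at each end, so a change of total RNA cannot be seen. No detection calls were used. Of the probe sets, 34958 carried 1 symbol in the platform annotation, 932 several and 9211 none, and the last 2 kinds were left unnamed.

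Intensities were turned into log2(signal + 16), which understates changes of dim probe sets. A probe set was tested if it reached the median of its array on at least 3 arrays. A linear model (limma 3.58.1, R 4.3.3, lmFit, then eBayes with its trend option) used all 18 arrays, 6 group terms and the experiment as a block, and had 10 residual degrees of freedom. All tests were two-sided, and p-values were adjusted by Benjamini-Hochberg over the 27110 probe sets tested, for 4 comparisons. The precision is limited by 3 arrays per group.

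The labels make each replicate number an experiment of its own. After subtracting group means, arrays of the same number correlated with each other (r of 0.201 to 0.642 over 45 pairs) and arrays of different numbers did not (-0.471 to 0.0651 over 90 pairs), so the numbers pair the samples. No pair of arrays shared more than 104 equal values.

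The members, the 19 gene lists (320 genes, 263 measured) and the tests were chosen with earlier results of these data known. Named are the genes called, with all their probe sets, those nearest to the threshold, a panel, and the list members with the smallest p. The comparison was repeated under 13 other settings: the replicate block left out, pseudocounts of 1 and 64, quantile normalization, no filter or a filter at the 75th percentile, fewer arrays in the fit, no intensity trend, and an experiment or 2 LPS arrays of 20 min with a high lower quartile left out.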

Additional observations from a re-analysis of the deposited data

Results flagged for a closer look

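The change of Socs3 between 10 and 20 min differed between LPS plus IL-10 and LPS alone by limma's test of the difference, on both of its probe sets whose probes can match other transcripts. The difference of the log2 changes was 2.56 for the brightest probe set (limma adjusted p = 0.0175) and 2.33 for the second (adjusted p = 0.0175), positive in 3 of 3 experiments for each. The third Socs3 probe set gave 1.38, also positive in 3 of 3, and did not pass (adjusted p = 0.346). These signs come from the same values as the test and are no further evidence. Without the block no probe set passed (smallest limma adjusted p = 0.360), and neither Socs3 call remained without experiment 1 or without experiment 2.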

How the results depend on the processing

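Of the 117 values of the 9 risers under the 13 other settings, 92 were still called. All 117 were positive, but each probe set rose in all 3 experiments and several settings change only the spread. The sign was thus largely fixed in advance. Calls held in 12, 13 and 13 settings for the Socs3 probe sets, in 12 for Sbno2 and in 11 for Etv3. They held in 9 for Cxcl2, in 8 each for Dusp1 and Ier3, and in 6 for Zfp36. Without the replicate block the called probe sets numbered 3 under LPS plus IL-10 and 0 in LPS alone, in the difference of the changes and from 20 to 30 min, with 411, 899, 556 and 517 at an unadjusted p under 0.05 by limma. Without the intensity trend the counts were 5, 0, 0 and 2 (1 of the 2 higher, 1 lower). Leaving out 1 experiment in turn gave 4 to 10 calls under LPS plus IL-10, 0 to 6 in LPS alone, 0 to 11 in the difference and 0 to 11 from 20 to 30 min. In LPS alone a pseudocount of 64 left 2 calls, and leaving out the 20 min LPS arrays of experiments 2 and 3 gave 14. The same omission gave 7 calls in the difference, of which 1 was called with all arrays. Both fits have a group of 1 array, whose spread is taken from the other groups, so their added calls support nothing. Fitting only the 9 LPS plus IL-10 arrays gave 10 calls from 20 to 30 min. The cause of these shifts was not tested. With LPS plus IL-10 at 20 against 10 min, quantile normalization, both pseudocounts and both filters left the count within 1.5 times of 9. Signals have no detection calls, so dim probe sets such as those of Dusp2 and Rcor3 cannot be told from background.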

Other observations

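For 20 against 10 min of LPS plus IL-10, 8 probe sets not called with all arrays passed under 1 or 2 other settings, and they are given as values only. Mt1, a metallothionein gene, was at 232 ± 23.9 at 20 min and 75.4 ± 16.2 at 10 min on its dimmer probe set (SD, n = 3 each, log2 change 1.45, limma adjusted p = 0.217), and passed when only the 9 LPS plus IL-10 arrays were fitted (adjusted p = 0.0377). Its brightest probe set was at 8375 ± 933 at 20 min and 7919 ± 136 at 10 min (0.07, adjusted p = 0.958). In the same fit a second Sbno2 probe set passed (1.03, adjusted p = 0.0377). Pde4b passed without the 20 min LPS arrays of experiments 2 and 3 (0.79, adjusted p = 0.0408). Klf6, a Kruppel-like factor gene, passed on the fourth-brightest of its 5 tested probe sets without experiment 3 (0.97, adjusted p = 0.0293). Without experiment 3 Selenow, a selenoprotein gene (0.82, adjusted p = 0.0293), and Rps10, a ribosomal protein gene (1.75, adjusted p = 0.0293), passed as well, and a probe set of Tm2d2 was lower (-1.39, adjusted p = 0.0293). Septin7, a cytoskeletal GTPase gene, passed with only the 9 LPS plus IL-10 arrays (0.76, adjusted p = 0.0404) and without the 20 min LPS arrays of experiments 2 and 3 (0.0443). Of the genes that passed under no setting, Ptger4, the gene of a prostaglandin E receptor, was at 489 ± 261 at 20 min and 269 ± 114 at 10 min (0.78, adjusted p = 0.246) and had a log2 change of -0.01 under LPS alone. Neat1, a noncoding RNA, was at 3279 ± 801 at 20 min and 4971 ± 736 at 10 min (SD, n = 3 each, -0.61, adjusted p = 0.409), with -0.52 under LPS alone.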
